A study of Mus musculus with 28 samples.

Results

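The ribosomal protein genes encode the proteins of the large (Rpl) and small (Rps) subunits of the cytoplasmic ribosome, and their promoters were followed here in maps of H3K27ac, a histone mark (acetylated lysine 27 of H3) of active promoters and enhancers. Members were chosen by symbol alone: Rpl or Rps, digits and at most the letters a, l, x or y, together with Rplp0, Rplp1, Rplp2 and Rpsa, wherever such a symbol was named in a promoter-class peak. Of 84 symbols of this form in the RefSeq gene table, 81 had a promoter peak in at least 1 H3K27ac library, 50 of the large and 31 of the small subunit, among 15868 genes with such a peak. Rps4l, Rpl32l and Rpl6l had no H3K27ac peak of any class. Members were named in 1126 of 173030 promoter peaks.

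The maps were made by ChIPmentation, a chromatin immunoprecipitation in which a transposase adds the sequencing adapters, from germ cells of C57BL/6 testes purified by STA-PUT sedimentation or magnetic sorting. The 12 H3K27ac libraries formed 6 groups of 2 replicates: Thy1+ and c-Kit+ spermatogonia of wild-type (WT) mice at postnatal day 7, the same populations of Scml2-KO (KO) mice at that age, and, from adult KO mice, spermatocytes at the pachytene stage (PS) and spermatids of the round stage (RS). Scml2 encodes a germline Polycomb protein. A further 16 input libraries, of chromatin without immunoprecipitation, covered these 6 groups and WT PS and RS. H3K27ac maps of WT PS and RS were not analysed here, so the adult groups have no WT counterpart and stage cannot be told apart from age between spermatogonia and adult cells. The labels do not describe the Scml2 allele or say whether replicates came from separate mice, so the tests below measure only the spread between these libraries. In such bulk samples fewer cells of a type and less signal per cell cannot be told apart.

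Ribosomal protein genes are expressed in nearly all cells, mostly from short promoters without a TATA box, and their transcripts begin with a run of pyrimidines, the TOP motif, through which their translation is regulated together. Each ribosome needs its proteins in matched amounts. In male germ cells the X chromosome is silenced at the pachytene stage of meiosis, and a few X-linked ribosomal protein genes have autosomal copies that are used in the testis, Rpl10l for Rpl10 and Rpl39l for Rpl39.

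RefSeq promoter windows (GRCm38.p6, 250 bases before the start and 50 from it on) were found for 61 of the 81 members. A pyrimidine run at the start was defined as a C within 5 bases of it followed by at least 5 C or T on the gene's strand. It was present in 24 of the 61 members (39.3%) and in 2759 of all 27025 windows (10.2%). Among related genes, 7 of 15 windows of translation elongation and other TOP genes had it, and 4 of 69 of mitochondrial ribosomal protein genes (5.80%). CCGGAA, the core of sites of the ETS factors, was found on either strand in 30 members (49.2%), in 15.2% of all windows and in 56.5% of the mitochondrial set. GGGCGG, the GC box, was found on either strand in 59.0% of members, 35.9% of all windows and 49.3% of the mitochondrial set. In the same order, AAGATGG, found in sites of the factor YY1, had 13.1%, 6.48% and 18.8%. TATAAA had 8.20%, 14.2% and 5.80%, both also on either strand. The stretches below, 60 bases before the start and 20 from it on, belong to the 2 X-linked genes and their testis copies, to a pair of the most and one of the least acetylated promoters, and to the 2 autosomal promoters that fell most in spermatocytes relative to other regions. Capitals mark the pyrimidine run at the start and CCGGAA or its reverse complement.
Rpl10 (chrX:74270756-74270835, plus strand): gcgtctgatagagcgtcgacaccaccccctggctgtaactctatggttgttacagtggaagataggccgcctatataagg
Rpl10l (chr12:66284382-66284461, minus strand): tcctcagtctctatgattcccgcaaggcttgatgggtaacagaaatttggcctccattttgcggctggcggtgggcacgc
Rpl39 (chrX:37085203-37085282, minus strand): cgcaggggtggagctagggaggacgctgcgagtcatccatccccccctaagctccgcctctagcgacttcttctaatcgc
Rpl39l (chr16:10170168-10170247, plus strand): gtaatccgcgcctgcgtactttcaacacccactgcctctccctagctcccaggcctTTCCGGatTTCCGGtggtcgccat
Rps6 (chr4:86857348-86857427, minus strand): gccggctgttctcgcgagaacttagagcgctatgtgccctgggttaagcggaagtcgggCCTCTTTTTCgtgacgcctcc
Rpl27a (chr7:109519135-109519214, plus strand): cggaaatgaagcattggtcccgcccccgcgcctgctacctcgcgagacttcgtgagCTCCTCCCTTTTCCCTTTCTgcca
Rps9 (chr7:3703981-3704060, plus strand): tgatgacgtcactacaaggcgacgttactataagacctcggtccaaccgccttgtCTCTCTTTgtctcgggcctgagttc
Rps15a (chr7:118116128-118116207, minus strand): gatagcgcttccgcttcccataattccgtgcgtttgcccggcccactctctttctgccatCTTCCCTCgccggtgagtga
Rps7 (chr12:28635934-28636013, minus strand): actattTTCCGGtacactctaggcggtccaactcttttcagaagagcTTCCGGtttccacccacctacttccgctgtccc
Neither testis copy nor its X-linked relative had the pyrimidine run as defined. Of the other stretches shown, Rps6, Rpl27a, Rps15a and Rps9 had it and Rps7 did not. The RefSeq start of Rpl39 lay 38 bases from its start listed with the peaks. Rpl39l held CCGGAA in reverse complement close to its start, and Rpl10, Rpl10l and Rpl39 had no match in the stretch shown.

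Peaks were annotated by the authors, and the value used for a gene was the fold enrichment of its highest promoter peak. This is the signal height plus 1 over a background height plus 1, the background being the same throughout a library. Each library held 17877 to 73316 peaks, with at least 63322 in each adult library and at most 36362 in each spermatogonial one. The background height, the only trace of depth in the files, was 0.564 to 1.11 in the spermatogonial and 0.849 to 1.62 in the adult libraries. No promoter peak of any input named a member, and no member's highest peak overlapped an input peak. Scml2 itself gives no test of the genotype labels in a map of acetylated peaks. Thy1 had no promoter peak in any library. Promoter peaks at the 6 spermatid markers, among them Prm1 and Tnp1, were called in both PS and both RS libraries and in neither library of 3 of the 4 spermatogonial groups; in Thy1+ WT cells 1 of the 6 was called in 1 library.

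Nearly every ribosomal protein promoter was acetylated in every library. A promoter peak was called in all 12 libraries for 78 of the 81 members, 47 of the large and 31 of the small subunit, or 96.3%, beside 58.9% of all genes with a promoter peak in any library (9350 of 15868). The 3 exceptions were the testis copies Rpl10l and Rpl39l and Rpl3l, a relative of Rpl3 known from muscle, which was called only in PS KO replicate 1 with a fold enrichment of 4.58. In 20 members the peak also named a snoRNA, a small RNA that guides the modification of other RNAs and is often encoded in introns of these genes, in 21 it also named another gene, and 42 were named alone in every library. The peak of a shared promoter cannot be assigned to either gene.

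**Figure D1:**
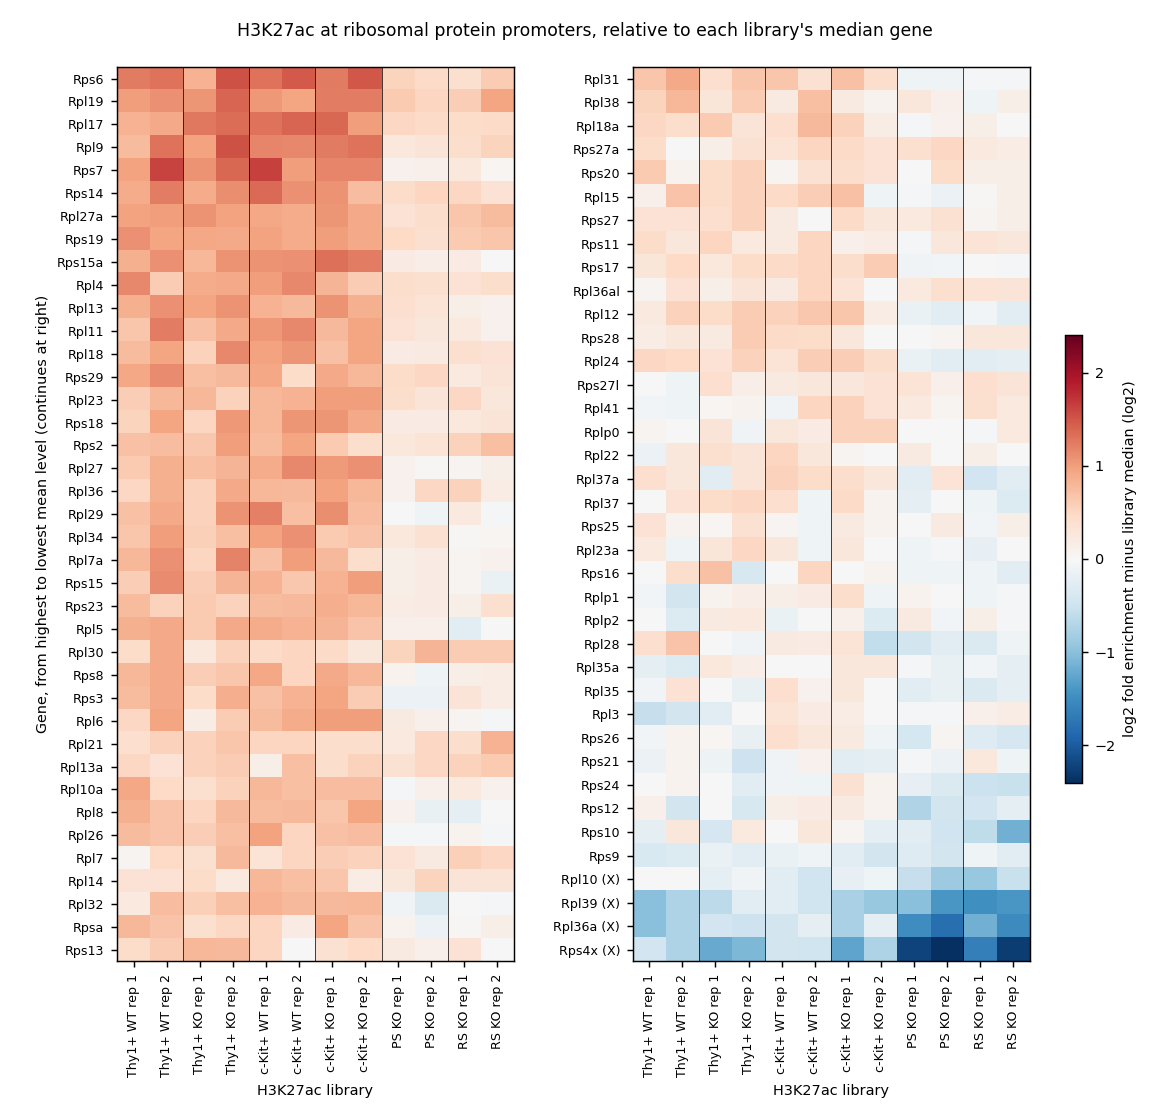
Colour gives the log2 fold enrichment of 77 of the 78 ribosomal protein promoters called in all 12 libraries (rows) minus the median over all 9350 genes called in all 12, per library (columns, replicates side by side), with red above and blue below that median. Most members are red in the 8 spermatogonial libraries and paler in the 4 adult ones, and the 4 X-linked members are at the bottom.

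The members stood high among all promoters, and higher in spermatogonia than in adult cells. In the 8 spermatogonial libraries the median member lay between percentile 87.0 and 91.1 of the library's promoter peaks by fold enrichment, and in the 4 adult libraries between 78.7 and 80.1. Among the 9350 genes called in all 12 libraries the median member lay at 77.8 to 83.6 in spermatogonia and at 56.9 to 59.97 in adult cells. The libraries of these kinds do not overlap on either scale, and the spermatogonial groups had similar values. The mean percentile among the 9350 genes was 80.1 ± 1.07 (SD, n = 2) in Thy1+ WT, 79.7 ± 1.07 in Thy1+ KO, 79.6 ± 0.287 in c-Kit+ WT and 80.7 ± 4.11 in c-Kit+ KO cells, beside 58.7 ± 0.136 in PS KO and 58.5 ± 2.14 in RS KO cells. The uncorrected levels did not drop: the median member's fold enrichment was 11.7 to 25.3 in spermatogonia and 16.8 to 24.3 in adult cells, while that of the 9350 genes was 8.68 to 18.7 and 15.7 to 22.4. Large and small subunit genes lay close together, with median log2 levels over the library median of 0.42 to 0.65 and 0.42 to 0.56 in spermatogonia and of 0.09 to 0.10 and 0.08 to 0.15 in adult cells.

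Peaks at these promoters were also wide. Their median width was 1164 to 1824 bp in spermatogonia, where all promoter peaks had medians of 531 to 1126 bp. In adult cells it was 1892.5 to 2229 bp, beside 1015 to 1520 bp. Each member entered with its highest promoter peak only, whereas all promoter peaks include lower peaks of the same gene. Width was not compared with the highest peaks of the other genes called in all libraries. In spermatogonia the summit lay downstream of the listed start in 82.4 to 90.7% of the members with such a start. In adult cells it did so in 73.7 to 80.3%. For all promoter peaks that name a gene alone the shares were 71.1 to 75.8% in spermatogonia and 67.8 to 71.4% in adult cells. The member shares use the highest peak of each gene and keep shared promoters.

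**Figure D2:**
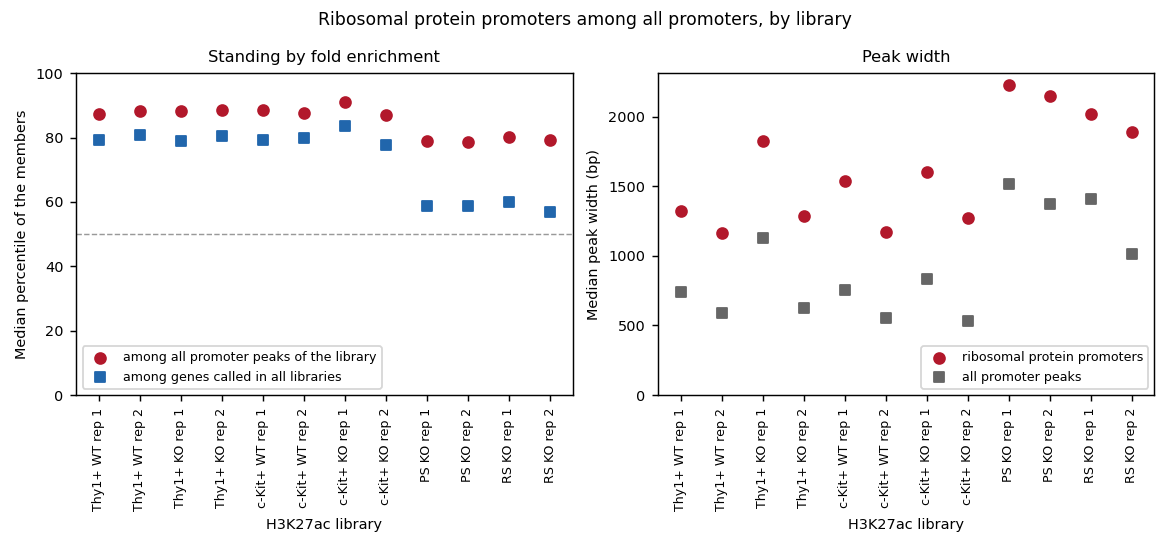
Left, median percentile of the ribosomal protein promoters by fold enrichment in each H3K27ac library, among all promoter peaks (circles) and among genes called in all 12 libraries (squares), with the dashed line at the median gene. Right, median width in bp of the highest promoter peak of each member (circles) and of all promoter peaks (squares). Percentiles are lower and widths larger in the 4 adult libraries.

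The members differed among themselves by more than the subunits did. With the 9350 genes ranked by their mean percentile, 67 of the 78 stood above the median gene, 11 below it, and 12 (15.4%) among the top 935 genes. The highest were Rpl19 (mean percentile 95.4), Rps6 (93.6), Rpl17 (92.4), Rps19 (92.2) and Rpl27a (92.1). Rps19 is the gene most often mutated in Diamond-Blackfan anaemia, and Rps6 encodes the subunit protein phosphorylated by S6 kinases. Rps6 had fold enrichments of 27.2 and 22.3 in Thy1+ WT, 33.4 and 31.3 in Thy1+ KO, 26.8 and 24.2 in c-Kit+ WT, 26.96 and 24.5 in c-Kit+ KO, 30.9 and 30.9 in PS KO and 23.9 and 23.8 in RS KO cells. These uncorrected levels overlap between spermatogonia and adult cells, whereas its log2 levels over the library median do not, at 0.83 to 1.53 and 0.38 to 0.60. The lowest were the 4 X-linked members, Rps4x (7.40), Rpl39 (11.7), Rpl36a (13.99) and Rpl10 (31.4), followed by Rps9 (33.1), and the other members ranked below the median gene were Rps10, Rps12, Rps24, Rps21, Rps26 and Rpl3. Rps9 had fold enrichments of 6.41 to 16.7 in spermatogonia and 12.98 to 17.2 in adult cells.

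The acidic stalk of the large subunit, which recruits elongation factors, is built from the products of Rplp0, Rplp1 and Rplp2, whose promoters had near-average levels. Rplp0 had fold enrichments of 9.05 to 23.3 in spermatogonia and 17.99 to 22.4 in adult cells. Rplp1 had 6.64 to 19.7 and 15.1 to 22.5, and Rplp2 had 7.00 to 21.8 and 15.1 to 24.8. Rpsa, whose product is also known as a laminin receptor, had 9.92 to 24.3 and 17.3 to 22.5. Rpl3, which encodes a protein near the peptidyl transferase centre, had 6.64 to 15.7 and 17.9 to 21.9. Rps27 and its relative Rps27l had similar levels, 8.68 to 24.8 and 8.45 to 24.8 in spermatogonia and 17.3 to 28.8 and 19.5 to 26.7 in adult cells.

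Among lists of related genes, 75 of 76 mitochondrial ribosomal protein genes with a promoter peak, all 21 translation elongation and other TOP genes and 28 of 29 ribosome biogenesis genes were called in all 12 libraries. Their median log2 levels over the library median were −0.21, 0.38 and 0.16, beside 0.38 for the ribosomal protein genes. By this median the TOP genes stood level with the members and the mitochondrial set below them.

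The 4 X-linked genes had lower promoter peaks than most other members at all stages. Their median fold enrichment was 38.4 to 55.6% of that of the 74 autosomal members in spermatogonia and 30.4 to 40.0% in adult cells, while at the 198 other X-linked genes called in all libraries it was 72.0 to 78.9% and 55.2 to 67.9% of that at the 8440 other autosomal ones. Between 1 and 4 of the 4 lay below every autosomal member in each library. Rps4x, which encodes a small subunit protein, had fold enrichments of 8.38 and 5.43 in Thy1+ WT, 8.10 and 5.12 in Thy1+ KO, 7.98 and 6.20 in c-Kit+ WT, 4.73 and 5.25 in c-Kit+ KO, 4.58 and 4.27 in PS KO and 5.87 and 3.25 in RS KO cells. The lowest peaks called in these libraries had fold enrichments of 3.05 to 3.84, so several of these values lie close to the calling limit.

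Rpl10, which encodes a protein needed for joining of the subunits, had fold enrichments of 11.5 and 9.05 in Thy1+ WT, 16.2 and 10.2 in Thy1+ KO, 9.12 and 6.20 in c-Kit+ WT, 9.93 and 8.16 in c-Kit+ KO, 14.5 and 12.3 in PS KO and 9.78 and 10.8 in RS KO cells. Its autosomal copy Rpl10l had 11.4 and 11.2 in PS KO and 12.1 and 12.4 in RS KO cells, and in spermatogonia was called only in Thy1+ WT replicate 2 (4.22) and Thy1+ KO replicate 1 (5.57). In PS both Rpl10 values exceeded both Rpl10l values, and in RS the order was the reverse.

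Rpl39, which encodes a protein of the exit tunnel of the large subunit, had fold enrichments of 4.66 to 12.2 in the spermatogonial libraries, 10.7 and 8.53 in PS KO and 6.65 and 5.95 in RS KO cells. Rpl39l had no promoter peak in any of the 8 spermatogonial libraries and values of 11.1 and 18.7 in PS KO and 13.3 and 10.8 in RS KO cells. All 4 adult values of Rpl39l exceeded the Rpl39 values of the same libraries.

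Rpl36a had 5.43 to 13.7 in spermatogonia and 5.41 to 8.21 in adult cells. Rpl36al, its autosomal relative, whose peak also names Mgat2, had 8.75 to 20.8 and 19.5 to 29.3, above Rpl36a in every library.

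**Figure D3:**
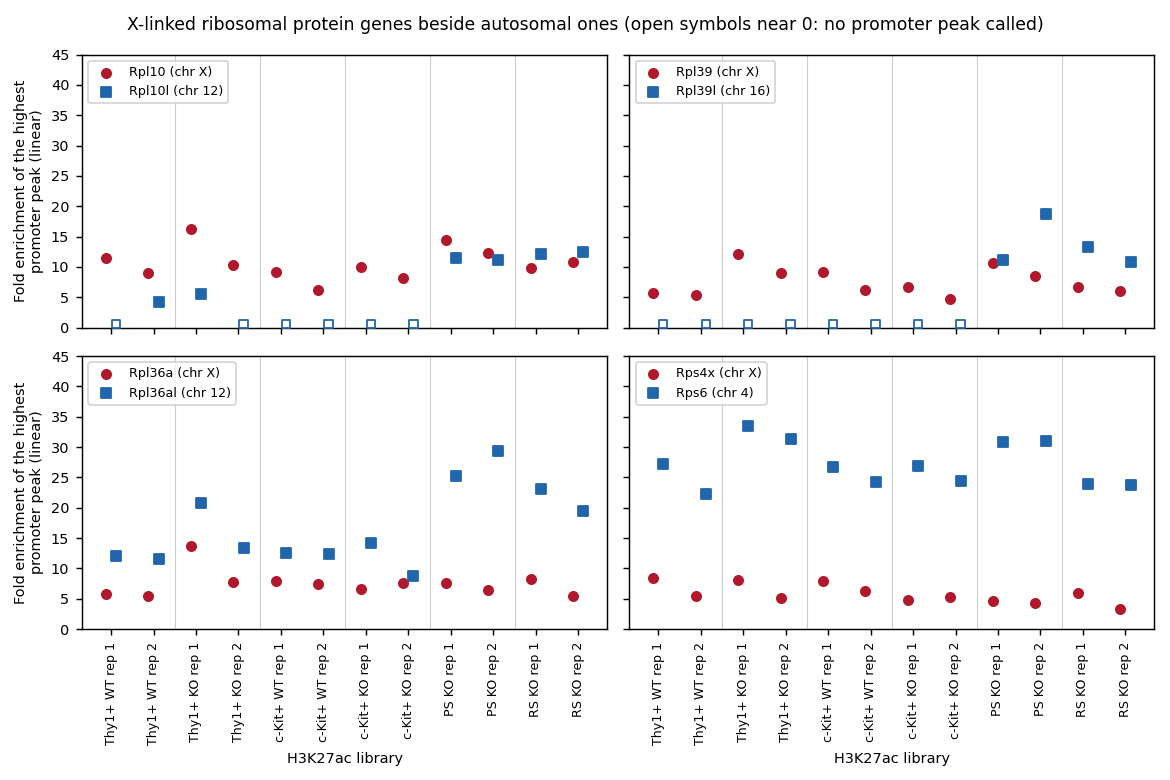
Fold enrichment of the highest promoter peak (linear axis) in each H3K27ac library for Rpl10 and Rpl10l, Rpl39 and Rpl39l, Rpl36a and Rpl36al, and for Rps4x beside Rps6, a highly acetylated autosomal member (circles, X-linked; squares, autosomal; open symbols, no promoter peak called). Rpl10l and Rpl39l have values of 10.8 to 18.7 in the adult libraries, and Rps4x stays at or below 8.38.

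No ribosomal protein promoter was called different between KO and WT spermatogonia. These tests were run on regions, each the union of overlapping peaks, that were called in every library tested, and log2 fold enrichments were centred on each library's median region, so that changes are relative to that region. With stage in the same limma model, 0 of 78 members passed a Benjamini-Hochberg adjusted p of 0.05, and 3 reached 0.05 before adjustment. Among all 9585 regions 0% were called higher and 0% lower, with 502 regions at an unadjusted p under 0.05. The median member changed by −0.04 and the median promoter region by −0.03. By smallest p, the members lower in KO were Rps4x (log2 change −0.56, SE 0.157, limma adjusted p = 0.747) and Rpl28 (−0.47, adjusted p = 0.840), and those higher were Rpl35a (0.36, adjusted p = 0.881) and Rpl7 (0.21, adjusted p = 0.972). When each library was left out Rpl28 had −0.67 to −0.31 and Rpl7 0.12 to 0.30. The genotype difference between stages, tested as an interaction, called 0 of 78 members, 3 with an unadjusted p under 0.05, and 0 of 9585 regions, 453 with an unadjusted p under 0.05.

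Likewise no member was called between c-Kit+ and Thy1+ spermatogonia. In the same limma model 0 of 78 members were called and 2 had an unadjusted p under 0.05, where 0.803% of the 9585 regions were called higher and 0.282% lower in c-Kit+ cells. The median member changed by 0.02. By smallest p, Rpl3 (0.46, SE 0.155, limma adjusted p = 0.138) and Rpl41 (0.32, adjusted p = 0.366) were higher, and Rps13 (−0.34, adjusted p = 0.297) and Rpl38 (−0.27, adjusted p = 0.444) lower. When each library was left out Rpl41 had 0.21 to 0.45 and Rpl38 −0.38 to −0.17. The centred values of Rpl3 in the 4 c-Kit+ libraries all exceeded those in the 4 Thy1+ libraries, though it was not called. The share of all regions without overlap was not computed, so this is not read as a difference. The mitochondrial, TOP and biogenesis lists also had no called gene in either comparison.

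Between c-Kit+ spermatogonia and PS, both KO, 29 of the 78 members tested fell relative to the median region and none of these 78 was called higher. Rpl10l, Rpl39l and Rpl3l had no promoter peak in the c-Kit+ KO libraries, so this fit could not test them. The 29 were 17 of 47 large and 12 of 31 small subunit genes, or 37.2%, where 25.1% of all 12501 regions and 15.2% of the 9283 promoter regions were called lower, and 6.83% and 8.21% higher. An unadjusted p under 0.05 was reached by 36 members. The median log2 change was −0.35 for the members, −0.17 for all regions and −0.06 for promoter regions. Of the 78 member changes 66 (84.6%) were negative, beside 55.9% of the promoter regions. The fall was relative only. The mean fold enrichment was higher in PS for 76 of the 78 members and for 27 of the 29 called. Rps4x and Rpl36a were the exceptions. The median member rose from 14.2 to 23.7 before centring. The share of all regions with a higher mean fold enrichment in PS was not counted. Without centring, 44 of 78 members were called higher (70.7% of regions) and 0 lower (0.792%), with a median of 0.73. After quantile normalization 5 were lower (3.18% of regions). With uncalled libraries at their lowest called value 1 of 80 was lower (10.1% of 38017 regions) and 1 higher (4.51%). The latter was Rpl10l (0.86), and Rpl39l, not called, changed by 1.20. Both entered this fit only through their PS peaks, with both c-Kit+ KO values filled in at the lowest called value. Their uncorrected rise was thus set by the filling, and these values are no test of it. Leaving out a library leaves its group with 1 sample, assumed to vary like the other group: 0 members and 0% of all regions were then lower without c-Kit+ KO replicate 2, and 10 to 17 members without each of the others (17.2 to 26.2% of regions).

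Rps4x fell most, by a log2 change of −1.25 (SE 0.215, limma adjusted p = 0.000998). Its fold enrichment was 4.73 and 5.25 in c-Kit+ KO and 4.58 and 4.27 in PS KO cells, close to the calling limit. Rpl36a came next, with −1.10 (SE 0.225, adjusted p = 0.00286). Its uncorrected values overlap, with 6.62 and 7.58 in c-Kit+ KO and 7.63 and 6.40 in PS KO cells. Rps15a followed with −1.04 (SE 0.189, adjusted p = 0.00142). Its fold enrichment was 28.4 and 20.4 in c-Kit+ KO and 24.4 and 25.1 in PS KO cells, so the uncorrected values overlap while the median region rose. Rps7 fell by 1.00 on the log2 scale (limma adjusted p = 0.00167), with 25.5 and 19.8 in c-Kit+ KO and 22.9 and 24.5 in PS KO cells. Rpl32 fell by 0.94 (adjusted p = 0.00299), with 19.4 and 15.2 and then 20.2 and 17.6. The other X-linked genes were not called: Rpl10 changed by −0.51 (adjusted p = 0.0641) and Rpl39 by −0.30 (adjusted p = 0.293), with −0.61 to −0.33 and −0.44 to −0.072 when each library was left out. Rps6 was among the 29, with −0.81 (adjusted p = 0.00658). The largest increase among the members tested, also not called, was that of Rpl30 (0.37, adjusted p = 0.180). Of the 4 X-linked members 2 were called lower and of the 74 autosomal ones 27, beside 26.7% of 251 X-linked and 14.9% of 9028 autosomal promoter regions.

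In the same comparison 6 of 76 mitochondrial ribosomal protein genes were called lower and 2 higher, 4 of 21 TOP genes lower (Eif2s3x, Eif3e, Eif3f and Pabpc4) and 1 of 28 biogenesis genes lower (Dkc1, which encodes the pseudouridine synthase of the ribosomal RNA). The summed fold enrichment of most marker lists was also higher in PS KO than in c-Kit+ KO cells, whatever the cell type. It was 167 to 188 against 16.9 to 32.2 for 7 spermatocyte markers, 44.8 to 81.2 against 0 for 6 spermatid markers, 57.2 to 59.2 against 8.16 to 23.6 for 10 markers of undifferentiated and 30.4 to 41.2 against 4.66 to 16.6 for 5 of differentiating spermatogonia. For somatic cells it was 49.95 to 66.6 against 9.91 to 25.5 for 6 Sertoli markers, 18.3 to 20.3 against 5.83 to 10.4 for 4 Leydig markers and 14.5 to 16.5 against 6.41 to 6.62 for 2 endothelial markers. The 2 peritubular markers had 0 to 4.80 against 0 to 10.4, and the 3 macrophage markers 0 to 3.05 against 0. All 6 Sertoli markers were called in both PS KO libraries and 1 in both c-Kit+ KO libraries, where Dhh and Cldn11 had no peak. The part of these cells in the result was not tested.

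**Figure D4:**
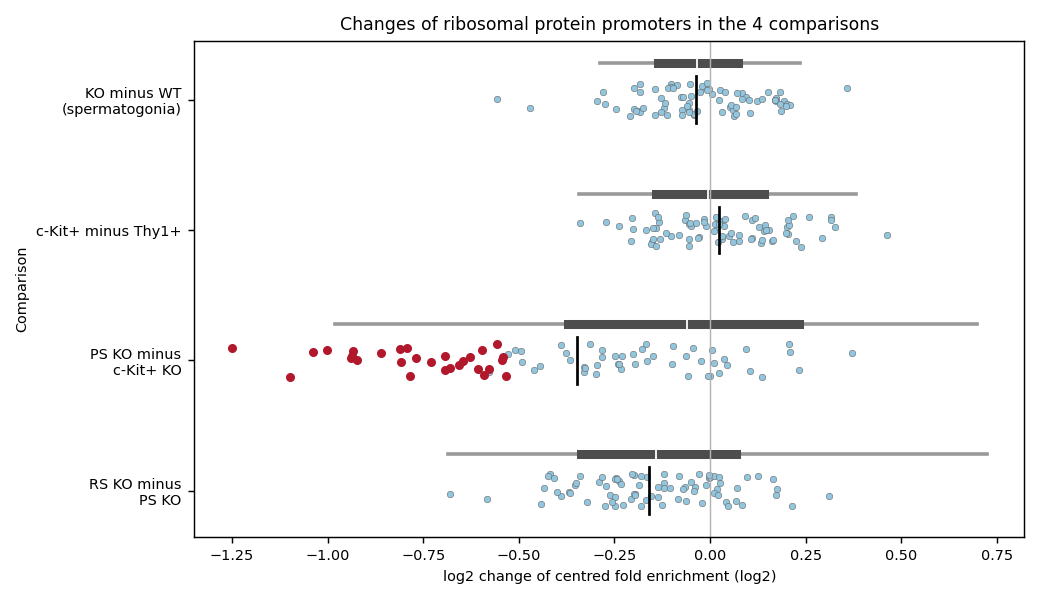
Log2 change of centred fold enrichment of each tested ribosomal protein promoter (points, spread vertically to separate them) in the 4 comparisons, with a black line at the members' median. Red points passed a limma adjusted p under 0.05, and the grey bars above show the quartiles (thick) and the 5th to 95th percentiles (thin) of all promoter regions; 29 members are red in the PS comparison and none in the other comparisons.

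Between RS and PS, both KO, no member was called. Of 80 members tested, on 79 regions, 0 passed and 3 had an unadjusted p under 0.05 in limma, where 12.4% of 21329 regions were called higher and 7.79% lower, and 4.74% and 5.33% of the 11566 promoter regions. The median member changed by −0.16 and the median promoter region by −0.14. Rps10, which is among the genes mutated in Diamond-Blackfan anaemia, had fold enrichments of 17.9 and 15.99 in PS KO and 12.1 and 7.03 in RS KO cells. It changed by −0.68 (SE 0.227, limma adjusted p = 0.0631). Rpl37a changed by −0.58 (adjusted p = 0.119). Without centring 2 members, Rps10 and Rpl37a, were called lower (17.0% of regions), and with uncalled libraries at their lowest called value 15 of 80 were (24.8% of 49727 regions). The members with the smallest p among those higher in RS were Rpl10l (0.31, adjusted p = 0.319) and Rps3 (0.21, adjusted p = 0.471). When each library was left out the changes were −0.92 to −0.39 for Rpl37a, 0.12 to 0.47 for Rpl10l and 0.10 to 0.21 for Rps3. In the lists, 3 of 76 mitochondrial genes (Mrpl35, Mrps22 and Mrps33) and 1 of 21 TOP genes (Pabpc4) were called lower.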

How the data were processed

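H3K27ac ChIPmentation and input chromatin were measured in spermatogenic cells, and the authors deposited a table of called peaks for each library, so replicates were not pooled. The submitters' processing notes name Bowtie, MACS2 and the build mm10, without versions or parameters. Per the file headers, each line gives a peak's start, end and width in bp, a summit and the signal height (pileup) there, followed by the −log10 p-value, enrichment and −log10 q-value of that summit, the nearest genes and a class of location. The deposited fold enrichment is a ratio of height to background, each with the same constant (a pseudocount) added. The background was constant within a library, so the ratio shows no local or input control. Read depth is unknown, so intervals that need counts were not computed.

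The listed lines of a peak were reduced to the highest summit, and a gene took its highest promoter peak. Within each comparison, peaks that shared 1 bp or more were joined into regions. The highest fold enrichment per library was taken to log2 without a further pseudocount. Regions with a peak in every library were kept, and each library was centred on its median region. limma 3.58.1 (lmFit and eBayes, R 4.3.3) was fitted to all regions: genotype and stage together on the 8 spermatogonial libraries, and PS against c-Kit+ KO and RS against PS KO on 4 libraries each. P-values were adjusted over all regions by the Benjamini-Hochberg method. A gene with several regions took the one with the highest mean level. Python 3.11.15, numpy 2.4.6 and pandas 2.3.3 were used for the rest.

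Members, related lists and marker genes were chosen with earlier results of these data known. Named are the X-linked genes and their relatives, the stalk genes and Rpsa, Rpl3, Rps27 and their relatives, the 5 highest and 5 lowest, those missing from a library, and in each comparison the 5 largest called changes in each direction or, with fewer than 2 called, the 2 smallest p-values of each direction. Rpl30 and the sequences shown were picked after their values were seen. Replicate numbers are shared by all groups, but the labels do not say that a number marks a shared batch. Alternatives changed the normalization, the peak threshold, the overlap, the treatment of uncalled libraries, the replicate block and the libraries included; leaving out centring and ranking among genes called in all libraries were added after seeing the data. In addition, 1 member is counted but not reported by itself here and is not drawn in the map of levels.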

Additional observations from a re-analysis of the deposited data

How the results depend on the processing

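The calls in PS and RS depend on how libraries are scaled. Read depth is unknown, and with −log10 q of at least 5 Rpl39l, Rpl10l, Rps4x, Rpl39 and Rpl36a lacked a peak in 8, 7, 7, 2 and 1 libraries. Values below are medians of the members' log2 changes unless named otherwise, and the cause of each shift was not tested. No member was called for genotype or between c-Kit+ and Thy1+ cells under any alternative, all fitted with limma. For genotype the median was 0.24 without centring, 0.022 with only peaks of −log10 q of at least 5, and −0.041 to 0.024 when each library was left out. For c-Kit+ against Thy1+ cells it was −0.25 without centring, −0.058 with uncalled libraries at their lowest value and 0.090 in WT libraries. For PS against c-Kit+ KO cells, 44 members were called higher and 0 lower without centring, with a median of 0.73 and log2 changes of 0.57 for Rpl10, 0.14 for Rpl32, 0.78 for Rpl39, 0.039 for Rps15a and 0.074 for Rps7, all opposite in sign to the centred values. After quantile normalization 5 were lower, and Rpl39 changed by 0.15. With uncalled libraries at their lowest value 1 was higher and 1 lower, with a median of −0.13. The higher one was Rpl10l, whose c-Kit+ KO values were filled in. Leaving out each library gave 0 to 17 lower and medians of −0.41 to −0.26. For RS against PS KO cells the median was −0.030 after quantile normalization, −0.35 without centring, 0.0030 centred on promoter regions, −0.38 with uncalled libraries at their lowest value, −0.0051 with −log10 q of at least 5, −0.12 with an overlap of 50% of the shorter peak, and −0.23 to −0.14 when each library was left out. There 2 members were lower without centring, 15 with uncalled libraries at their lowest value, and 0 to 1 when each library was left out, which leaves a group with 1 sample assumed to vary like the other group (Rps10 without RS KO replicate 1). Rps4x changed by −0.054, −0.018 and −0.047 with quantile normalization, no centring and uncalled libraries at their lowest value, against 0.18 in the centred fit. Rpl36a changed by −0.067 and −0.096 without centring and with uncalled libraries at their lowest value, and Rps3 by −0.0090 with the latter. Leaving out each library gave −0.44 to 0.031 for Rpl10, −0.14 to 0.25 for Rpl36a and −0.11 to 0.43 for Rps4x.

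With only peaks that name the gene alone, 39 members were called in all 12 libraries. The mean over libraries of the members' median percentile was 80.4 by peak width, 80.0 with −log10 q of at least 5 and 72.9 among genes called in all 12, beside 85.3 by fold enrichment. The replicate numbers are shared between groups, and deviations of same-numbered libraries correlated by 0.00039 to 0.16 across regions. With the replicate block, 25 of 78 members were lower in PS than in c-Kit+ KO cells, beside 23.7% of all regions. Between RS and PS KO cells 1 of 80 was lower (Rps10, limma adjusted p = 0.0451), beside 7.91% of all regions. In the spermatogonial comparisons 0 members were called, beside 0% of regions for genotype and 1.59% higher and 0.563% lower in c-Kit+ than in Thy1+ cells.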
